A study of Mus musculus with 30 samples.

Results

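The 10 genes Ttr, Kl, Kcnj13, Folr1, Clic6, Sostdc1, Otx2, Slc4a5, Aqp1 and Enpp2, which mark the epithelium of the choroid plexus, were read on 30 single-colour expression arrays, 15 of hippocampus and 15 of tissue labelled brain. They were chosen by name, as genes known for this epithelium, and are 10 of the 36717 genes and transcripts on the array. The arrays of each tissue are numbered 0 to 14, with the same genotype and sex at a number in both tissues, and a number is taken here as 1 mouse, which the labels do not state. The 4 genotypes were wild type (WT, C57BL/6j), 3xTgAD, JHT and the cross JHT_3xTgAD, called 3xTgAD-BKO here. The 3xTgAD mouse is a model of early-onset Alzheimer's disease that carries mutant human APP and tau transgenes, driven by a promoter active in neurons. It also carries a mutation in presenilin 1 (PS1). The JHT mouse has a deletion in the immunoglobulin heavy chain J region and forms no mature B cells, and 3xTgAD-BKO mice carry both modifications. The groups were 3xTgAD females (mice 1 and 2) and males (mice 3, 4 and 5), 3xTgAD-BKO females (mice 6 and 7) and males (mice 0, 8 and 9), WT females (mice 10, 11 and 12) and JHT females (mice 13 and 14). The mice were 15 to 20 months old and were perfused with saline before dissection. WT and JHT mice were all female. Each array was 1 mouse, so the spread within a group covers animal, dissection and array together, and groups of 2 or 3 limit the precision of every difference below.

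Levels are log2 of the scanner's background-corrected signal after quantile normalization over the 30 arrays, so that 1 unit is a doubling, and levels of different genes are not compared with each other. Between 54.0% and 63.6% of probes were well above background on each array, and no probe was saturated. Of the 10 genes, 8 were well above background on all 30 arrays, Aqp1 on 29 and Slc4a5 on 24, with all the dim readings in hippocampus. All 6 marker genes of hippocampal neurons were higher in hippocampus and all 6 markers of neurons from other regions were lower there, as the tissue labels say. The arrays lay on 4 slides. Hippocampi of mice 0 to 7 shared slide 1, the other hippocampi and the brain of mouse 0 shared slide 2, brains of mice 1 to 8 shared slide 3 and brains of mice 9 to 14 shared slide 4. As a result, 3xTgAD and WT arrays lay on different slides in both tissues, while JHT and WT arrays shared a slide.

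The choroid plexus is a fold of vascular tissue in the brain ventricles, covered by a layer of epithelial cells that secrete cerebrospinal fluid. Its lateral branch lies against the hippocampus, along the fimbria, and is easily torn away or carried along when the hippocampus is dissected. The epithelium makes and secretes transthyretin (Ttr), which carries thyroid hormone and retinol-binding protein, and moves ions, water and folate between blood and fluid. Because these genes are expressed far more strongly in the epithelium than in neurons or glia, their level in a bulk sample depends on how much epithelium the sample holds and on how much RNA each cell holds, and the arrays cannot tell the 2 apart. Enpp2 (autotaxin, which makes lysophosphatidic acid) is an exception in part, since oligodendrocytes express it too.

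Promoter sequence from RefSeq (GRCm38.p6) is shown for the factor of the list and for the gene that departed furthest from the others in brain. Otx2 is a homeodomain transcription factor that specifies and maintains choroid plexus epithelium, and its core motif TAATCC was searched on both strands in the 250 bases before each start. Ttr was left out of this search. For the other genes the table held 8 such windows, from 5 of the 10 genes (Kl, Kcnj13, Otx2, Slc4a5 and Aqp1). The motif was in 1 of these 8 windows, against 6.25% of all 32851 windows in the table (2054 windows). The match lay in 1 of the 4 windows of Otx2 itself, and of that window only the 30 bases around the match are shown (chr14:48665303-48665332, minus strand), where the capitals mark the motif read from the opposite strand. The window of Kcnj13, an inwardly rectifying potassium channel of the apical membrane, held no match, which says only that these letters are not in the stretch chr1:87394730-87394979 on the minus strand.
Otx2: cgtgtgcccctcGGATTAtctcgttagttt
Kcnj13: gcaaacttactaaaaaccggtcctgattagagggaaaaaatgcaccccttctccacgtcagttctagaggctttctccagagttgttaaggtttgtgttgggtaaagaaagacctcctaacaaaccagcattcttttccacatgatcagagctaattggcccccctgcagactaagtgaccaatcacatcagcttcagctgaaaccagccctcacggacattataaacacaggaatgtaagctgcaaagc

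In hippocampus the 10 genes divided the arrays in the same way. For every gene the widest gap between neighbouring levels separated the same 4 arrays, those of 3xTgAD male 4, 3xTgAD-BKO female 7 and JHT females 13 and 14, from the other 11. These 4 mice belonged to 3 genotypes and lay on both hippocampal slides. The gap was widest for Slc4a5 (4.05 log2 units) and narrowest for Enpp2 (1.33). Because this division was read from the levels themselves, it is given as a description with no test.

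Ttr, the secreted carrier protein, read 18.28 in 3xTgAD male 4, 18.19 in 3xTgAD-BKO female 7, 18.05 in JHT female 13 and 17.65 in JHT female 14. Below the gap, Ttr was 13.84, 14.44, 13.81 and 12.93 in 3xTgAD mice 1, 2, 3 and 5, 11.20, 11.89, 9.91 and 13.07 in 3xTgAD-BKO mice 6, 0, 8 and 9, and 8.81, 11.95 and 11.99 in WT mice 10, 11 and 12. The 11 lower arrays thus still spanned 5.63 log2 units, a 49.4-fold range, and no WT hippocampus reached any 3xTgAD hippocampus. Enpp2 read 17.37, 17.15, 17.11 and 16.47 in the same 4 arrays and 13.04 to 15.14 in the other 11. Sostdc1, a secreted antagonist of BMP and Wnt signalling, read 12.06, 11.70, 11.41 and 10.80 against 7.65 to 8.34. Kl, the co-receptor klotho that is also shed into the fluid, read 12.91, 12.57, 12.59 and 11.74 against 9.25 to 10.15. Both Sostdc1 and Kl were nearly flat across the 11 lower arrays, with a range of 0.69 for Sostdc1 and 0.90 for Kl, where Ttr varied widely.

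The transporters and channels showed the same 4 arrays. In the order 3xTgAD male 4, 3xTgAD-BKO female 7, JHT female 13 and JHT female 14, Kcnj13 read 12.68, 13.13, 13.33 and 12.003, and it read 5.08 to 8.42 in the other 11, with 6.04 to 8.13 in 3xTgAD, 5.08 to 8.42 in 3xTgAD-BKO and at most 7.86 in WT. The 3 genotypes thus overlapped for Kcnj13 below the gap. Aqp1, the water channel of the apical membrane, read 11.70, 11.88, 12.18 and 11.17. In the others Aqp1 was 6.61, 7.52, 6.45 and 5.70 in 3xTgAD mice 1, 2, 3 and 5, 5.31, 6.19, 5.78 and 6.72 in 3xTgAD-BKO mice 6, 0, 8 and 9, and 4.39, 5.25 and 5.15 in WT mice 10, 11 and 12. Below the gap, all WT hippocampi were therefore lower in Aqp1 than all those of the other genotypes. Slc4a5, a sodium bicarbonate cotransporter, read 10.92, 10.64, 10.61 and 9.90 against 3.65 to 5.85. Its signal in 6 of the 11 lower arrays was not well above background, so their values are upper limits rather than levels. Clic6, a chloride intracellular channel protein, read 14.03, 13.94, 14.11 and 13.17. In the others Clic6 was 10.82, 10.25, 10.03 and 10.27 in 3xTgAD mice 1, 2, 3 and 5, 9.14, 9.87, 7.62 and 8.61 in 3xTgAD-BKO mice 6, 0, 8 and 9, and 7.33, 8.35 and 9.46 in WT mice. The 4 lower hippocampi of 3xTgAD mice were above those of the other genotypes in Clic6. Folr1, the folate receptor that moves folate into the fluid, read 14.14, 13.85, 13.97 and 12.81 against 7.16 to 9.28. Otx2 read 12.33, 12.10, 12.31 and 11.12 in the 4 arrays. In the others Otx2 was 9.08, 8.44, 8.41 and 8.68 in 3xTgAD mice 1, 2, 3 and 5, 8.50, 8.96, 5.79 and 7.34 in 3xTgAD-BKO mice 6, 0, 8 and 9, and 6.16, 7.10 and 6.93 in WT mice. JHT female 14 was the lowest of the 4 for all 10 genes, and all the genes but Kcnj13, Clic6 and Aqp1 were highest in 3xTgAD male 4.

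**Figure D1:**
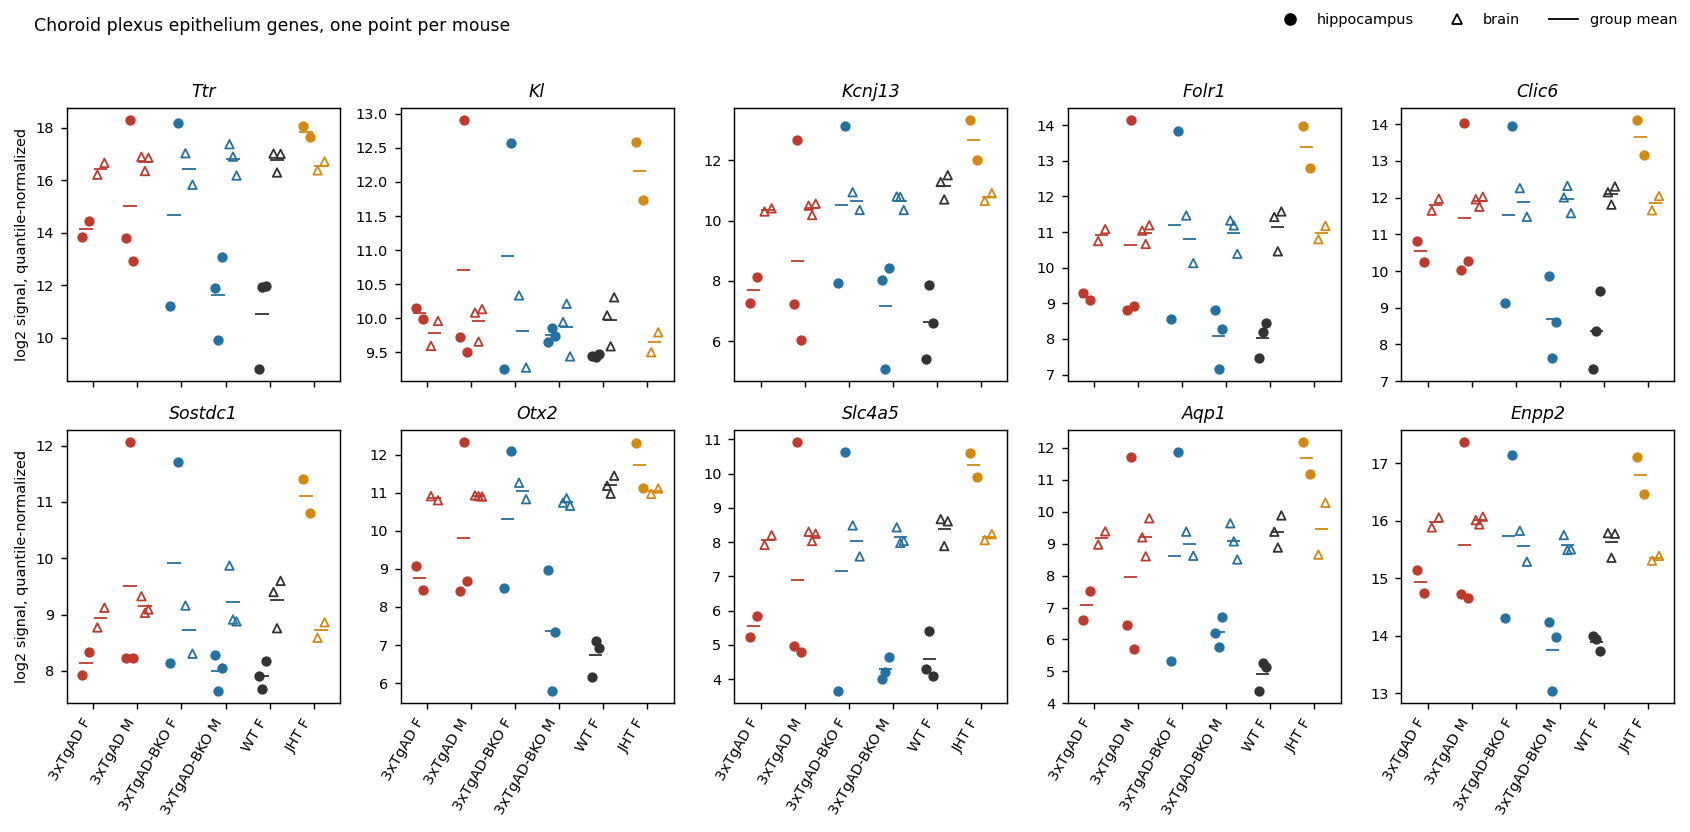
Log2 signal (vertical axes, quantile-normalized, a separate scale for each gene) of the 10 choroid plexus genes in the 6 groups of genotype and sex; filled circles are hippocampi, open triangles brains and horizontal lines group means. In hippocampus 1 male 3xTgAD mouse, 1 female 3xTgAD-BKO mouse and both JHT mice stand above all other points, while the brain samples of all groups lie close together.

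In brain the spread of the same genes was far smaller. Ttr was 16.21, 16.66, 16.89, 16.35 and 16.86 in 3xTgAD mice 1 to 5, 17.03, 15.83, 17.37, 16.90 and 16.18 in 3xTgAD-BKO mice 6, 7, 0, 8 and 9, 16.29 to 17.01 in the 3 WT mice and 16.37 and 16.71 in JHT mice. All 4 genotypes overlapped, and the highest brain was 2.91-fold over the lowest. Across the 10 genes this range ran from 1.72-fold for Enpp2 to 3.42-fold for Aqp1, whose highest level (10.28) was in JHT female 14. Otx2 was 10.80 to 10.93 in 3xTgAD, 10.66 to 11.26 in 3xTgAD-BKO, 10.97 to 11.45 in WT and 10.97 to 11.11 in JHT mice. All WT and JHT brains were thus above all 3xTgAD brains in Otx2, by a small margin. The share of all genes that did so was not counted. Folr1 was 10.66 to 11.19 in 3xTgAD, 10.13 to 11.46 in 3xTgAD-BKO, 10.46 to 11.58 in WT and 10.80 to 11.17 in JHT mice. Slc4a5 was 7.92 to 8.30, 7.58 to 8.49, 7.88 to 8.67 and 8.06 to 8.23 in the same order. Sostdc1 was 8.77 to 9.33, 8.31 to 9.87, 8.76 to 9.60 and 8.59 to 8.86, with its highest level in 3xTgAD-BKO male 0, the brain that was also highest in Ttr. Folr1, Slc4a5, Sostdc1, Kl (9.27 to 10.33 over all brains) and Clic6 (11.48 to 12.32) overlapped between all 4 genotypes. The 4 hippocampi above the gap exceeded every brain for 9 of the 10 genes, and 3 of the 4 did so for Otx2. The 11 other hippocampi lay below every brain for 8 genes, with Sostdc1 below in 10 of the 11 and Kl in 1 of the 11. Kl levels therefore separated these 11 hippocampi from brain the least. These counts are a description, since the hippocampi were divided by the levels of the same genes and the share of all genes was not counted.

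The genes moved together from array to array in both tissues. After each gene was centred on its own mean in a tissue, 1 principal component held 95.1% of the variance of the 10 genes in hippocampus and 73.1% in brain. The size of the movement differed by gene. Per unit of the mean of the other genes of the list, Ttr moved by 1.38 in hippocampus and 1.35 in brain, and Folr1 by 1.13 and 1.48. Enpp2 moved by 0.58 and 0.37, the smallest slope in brain. Kl moved by 0.55 in hippocampus, the smallest there, but by 1.02 in brain. Otx2 moved by 0.94 in hippocampus and by only 0.38 in brain. These slopes follow from values that share arrays, and they carry no test. In hippocampus the component and the slopes were taken over all 15 arrays, so they include the difference between the 4 arrays above the gap and the other 11.

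**Figure D2:**
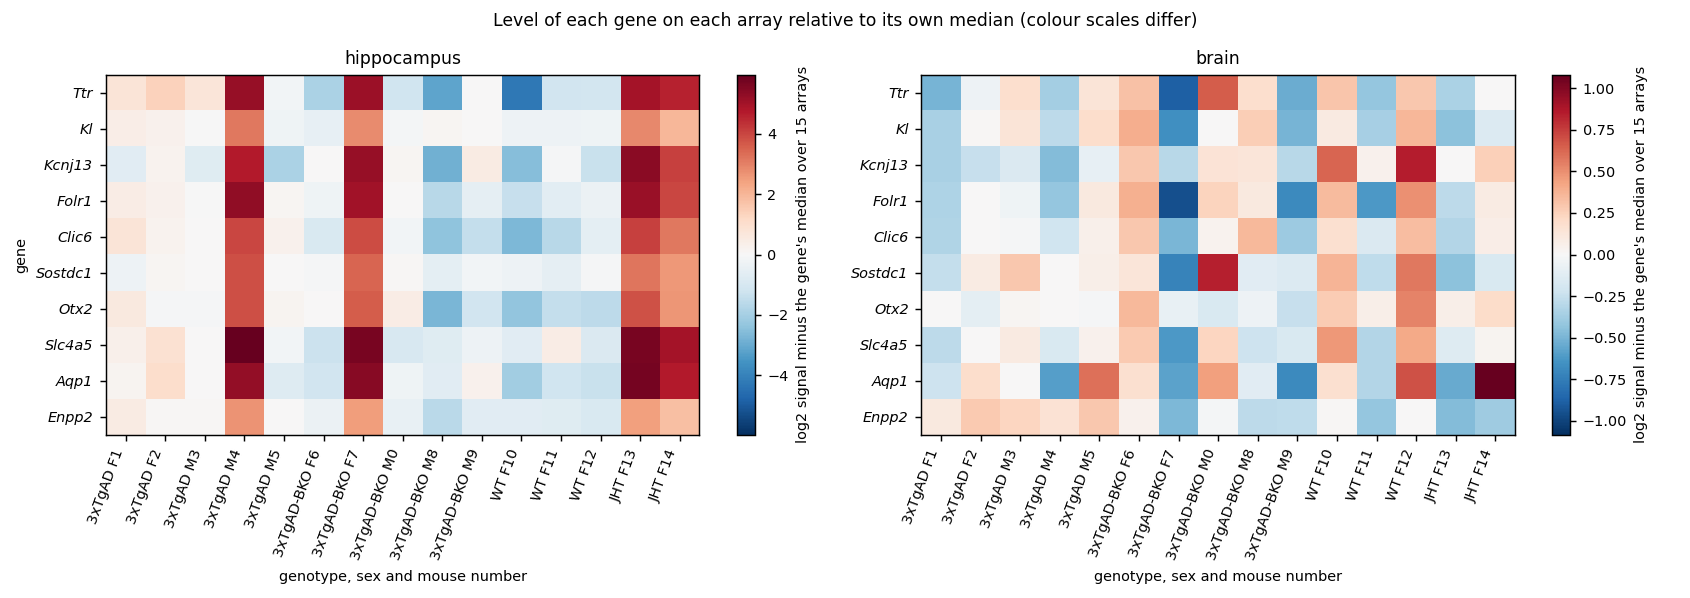
Colour shows the log2 signal of each gene (rows) on each array (columns, named by genotype, sex and mouse number) minus that gene's median over the 15 arrays of the tissue, with a wider colour scale in hippocampus (left) than in brain (right). All 10 genes are dark red in the same 4 hippocampal columns, and in brain the columns of 3xTgAD-BKO female 7 and of WT female 12 run mostly blue and mostly red.

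Because the hippocampal arrays fell into separate clusters, relations to Ttr were tested in hippocampus only over the 11 arrays below the gap (too few lay above it) and in brain over all 15. There were 18 relations, with 100000 permutations each, two-sided, and Benjamini-Hochberg adjustment. In hippocampus 6 of the 9 other genes passed with r above 0, Slc4a5 among them although 6 of its 11 values were not well above background. Folr1 had the highest r (r = 0.86, rho = 0.74, adjusted permutation p = 0.00288 for r and 0.0231 for rho). Clic6 (r = 0.84, rho = 0.78), Aqp1 (r = 0.82, rho = 0.75), Otx2 (r = 0.72, rho = 0.49), Enpp2 (r = 0.72, rho = 0.65) and Slc4a5 (r = 0.65, rho = 0.69) had adjusted permutation p values for r of 0.00288, 0.00439, 0.0195, 0.0201 and 0.0409. By rank Clic6 and Aqp1 were above Folr1, and Otx2 did not pass (adjusted permutation p for rho = 0.156). Kcnj13 (r = 0.62, rho = 0.46, adjusted permutation p = 0.0527), Sostdc1 (r = 0.54, rho = 0.50, 0.102) and Kl (r = 0.52, rho = 0.62, 0.110) did not pass. Without the 2 arrays farthest from the median of Ttr, r stayed between 0.60 and 0.83 for the 6 genes that passed and fell to 0.38 for Kcnj13 and 0.35 for Kl. After group means were subtracted, 4 genes passed, Kcnj13 (r = 0.89, adjusted permutation p = 0.00080), Aqp1 (0.85, 0.000607), Folr1 (0.76, 0.0111) and Clic6 (0.65, 0.0395). Otx2 (0.54, adjusted permutation p = 0.114), Slc4a5 (0.41, 0.232) and Enpp2 (0.38, 0.266) no longer passed, and neither did Sostdc1 (0.41, 0.232) or Kl (-0.18, 0.600).

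In brain 7 of the 9 genes rose with Ttr. The relation was closest for Folr1 (r = 0.93, rho = 0.93, adjusted permutation p = 0.000324). Sostdc1 (r = 0.87, rho = 0.83), Kl (r = 0.87, rho = 0.83), Clic6 (r = 0.86, rho = 0.85) and Slc4a5 (r = 0.85, rho = 0.84) had the same adjusted permutation p. Aqp1 (r = 0.71, rho = 0.69, adjusted permutation p = 0.0065) and Kcnj13 (r = 0.64, rho = 0.78, 0.0163) were looser. Enpp2 (r = 0.45, rho = 0.28, adjusted permutation p = 0.110) and Otx2 (r = 0.37, rho = 0.36, 0.178) did not pass. Without the 2 arrays farthest from the median of Ttr, r was 0.68 to 0.95 for the 7 genes, 0.33 for Enpp2 and 0.61 for Otx2. After group means were subtracted all 9 genes passed, with r of 0.90 for Kcnj13, 0.89 for Enpp2 and 0.68 for Otx2, the 3 genes with the lowest r before.

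A further list of choroid plexus epithelium genes, of which 28 of 29 were on the array, divided the hippocampi at the same place. Its mean level was 10.15 to 11.15 in the 4 arrays above the gap, 7.33 to 8.34 in the other 11 and 9.00 to 9.68 in brain. Kcne2, a potassium channel subunit of this epithelium, ranged from 2.13 to 7.36 in the 11 arrays and from 11.63 to 12.45 in the 4. Cldn2, a pore-forming claudin of its tight junctions, ranged from 2.34 to 4.96 and from 8.30 to 10.63. In the 11 arrays Kcne2 was not well above background in 2 and Cldn2 in 8, so those readings are upper limits. Markers of other cell types divided the arrays less clearly or not at all. Ependymal genes averaged 8.84 to 10.06 in the 4 arrays and 8.09 to 9.69 in the 11, and meningeal genes 9.93 to 10.99 and 8.74 to 10.69, so both overlapped. Endothelial genes (10.50 to 11.17 against 10.20 to 11.14), blood genes (9.77 to 11.50 against 9.57 to 11.68), oligodendrocyte genes (12.53 to 12.86 against 11.95 to 13.34) and hippocampal neuron genes (10.82 to 11.26 against 10.76 to 11.32) lay within or close to the range of the 11. Thalamic genes were at 8.08 to 8.47 against 8.04 to 8.57, where brain had 9.25 to 9.66. Pineal genes (6.96 to 7.77 against 6.74 to 8.17) and pituitary genes (5.45 to 9.22 against 4.59 to 10.39) did not follow the 4 arrays, although pituitary genes reached 12.06 in brain. The part of these cell types in the levels was not tested.

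Among 25013 other genes and transcripts well above background in some group, those most like the mean of the 10 genes across hippocampi were Wdr86, Steap1, Kcne2, an intergenic transcript without a symbol, Ecrg4, Smim22, Tex22, Col8a2, Wfdc2 and Krt18. Within the 11 arrays below the gap their r with that mean was 0.74 to 0.96, given as a description over genes chosen for likeness. In brain the 10 most alike were Ecrg4 (r = 0.96), Krt18 (0.96), Steap1, Sult1c2, AK166854, Oca2, Prr32, Cldn2, Krt8 and Wdr86 (0.89). Steap1, Ecrg4, Krt18 and Wdr86, all in the second list of choroid plexus genes, appeared in both tissues.

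The comparison of tissues asks how much of each transcript the 2 dissections held. Of the 10 genes, 6 were lower in hippocampus than in brain (adjusted p under 0.05), where 26.1% of all genes were called lower. Ttr differed by -2.58 ± 0.62 (hippocampus minus brain, log2 ± SE, limma, adjusted p = 0.00154) and Otx2 by -1.86 ± 0.40 (adjusted p = 0.000544). Kcnj13 (-1.78, adjusted p = 0.0166), Slc4a5 (-1.71, 0.0226), Aqp1 (-1.47, 0.0413) and Clic6 (-1.21, 0.0280) also passed. Folr1 (-0.88 ± 0.52, adjusted p = 0.173), Enpp2 (-0.57, 0.0880), Kl (0.67, 0.0899) and Sostdc1 (0.09, 0.856) did not. These averages mix hippocampi above and below every brain. Without the 4 arrays above the gap the differences were -4.38 for Ttr, -0.98 for Sostdc1 and -0.25 for Kl, given as a description because the arrays were set aside for the levels of these same genes. With mouse 14 left out only Ttr and Otx2 passed, with mouse 6 left out only Ttr, Otx2 and, in the other direction, Kl, and with mouse 4 or mouse 7 left out 8 genes did.

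Whether a hippocampus that carried more Ttr left a brain sample with less was examined within mouse numbers, and holds only if a number is the same animal in both tissues. Over the 11 mice below the hippocampal gap, Ttr in hippocampus and in brain had r = -0.44 (permutation p = 0.173) and rho = -0.68 (permutation p = 0.0245), and r was -0.43 without the 2 mice farthest from the median and -0.40 after group means were subtracted. The relation therefore passed by rank and not by value. In the 4 mice above the gap, brain Ttr was 16.35 in 3xTgAD male 4, 15.83 in 3xTgAD-BKO female 7, 16.37 in JHT female 13 and 16.71 in JHT female 14. These brains ranked 5, 1, 6 and 8 from the lowest of the 15, so none was above the median.

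**Figure D3:**
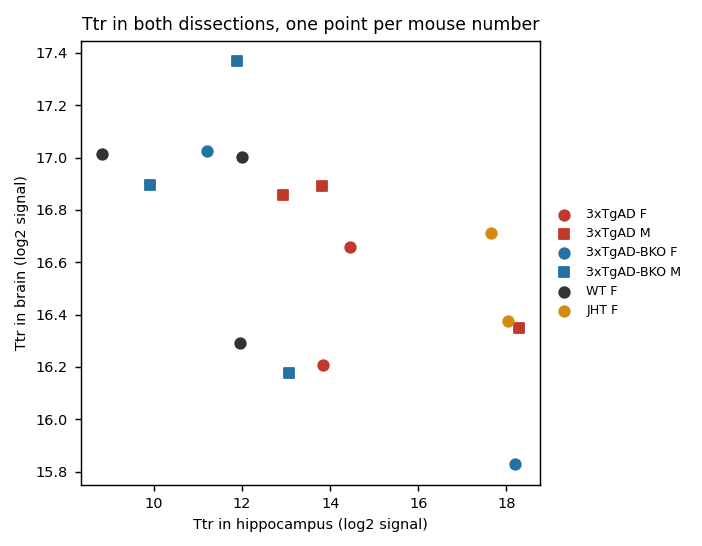
Ttr in brain (vertical axis, log2 signal) against Ttr in hippocampus (horizontal axis, log2 signal), with 1 point per mouse number (taken as the same mouse in both tissues), coloured by genotype and shaped by sex. The 4 points on the right, at 17.65 to 18.28 in hippocampus, have brain values of 15.83 to 16.71.

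The genotype comparisons asked whether the epithelial transcripts changed with the 3xTgAD modification or with the loss of B cells. In hippocampus none of the 10 genes passed in any of them. In 3xTgAD-BKO against 3xTgAD females (2 against 2 mice), where 0.37% of all genes were called, the differences were 0.55 to 2.84, all above 0 (lowest adjusted p = 0.543), and 0 of the 10 genes separated the groups, where 56.6% of all genes did. Kcnj13 differed by 2.84, Folr1 by 2.02, Sostdc1 by 1.78, Slc4a5 by 1.60, Otx2 by 1.54, Aqp1 by 1.53 and Clic6 by 1.003. In males (3 against 3), where 0.836% of all genes were called, they were -3.38 to -0.96 (lowest adjusted p = 0.260, for Enpp2), all below 0. Ttr differed by -3.38, Clic6 by -2.74, Slc4a5 by -2.60, Folr1 by -2.54, Otx2 by -2.44, Enpp2 by -1.83, Aqp1 by -1.72, Sostdc1 by -1.51 and Kcnj13 by -1.47, with 3 of the 10 genes (Clic6, Slc4a5 and Enpp2) not overlapping, against 20.3% of all genes. Of the 3 Slc4a5 values of 3xTgAD-BKO males, 2 were not well above background. The opposite signs of the sexes came with 1 array above the gap in each, female 7 among 3xTgAD-BKO and male 4 among 3xTgAD. Without them 9 of the 10 female differences turned below 0, to -2.94 for Ttr, -1.89 for Slc4a5, -1.75 for Aqp1, -1.40 for Clic6, -0.82 for Kl, -0.63 for Enpp2, -0.62 for Folr1, -0.26 for Otx2 and -0.0010 for Sostdc1, and Kcnj13 was left at 0.23. Of the male differences 3 turned above 0, Kcnj13 (0.54), Aqp1 (0.15) and Kl (0.13), and the other 7 stayed below. These values are a description, because the arrays were set aside for the levels of these same genes, and 3xTgAD-BKO females were then 1 array (mouse 6) against 2, in which Slc4a5 was not well above background. Over both sexes the differences were -1.41 (Ttr) to 0.68 with a lowest adjusted p of 0.818, against 1.02% of all genes called. These directions were not stable, since Ttr ran from -3.16 without female 7 to 0.33 without female 6, and with slide as a fixed term Folr1 (0.11) and Otx2 (0.35) turned above 0. The difference between the sexes itself was 1.81 to 4.56 (lowest adjusted p = 0.262), and 0.0245% of all genes were called for it. Of the 28 further choroid plexus genes, 27 were higher in 3xTgAD-BKO females (median 1.49) and 0 in males (median -0.94), with none called. Meningeal and stromal genes were higher in 3xTgAD-BKO for 10 of 10 genes in females (median 1.67) and in males (median 0.68), also with none called. Their mean level was 10.67 to 10.99 in 3xTgAD-BKO females against 8.74 to 9.46 in 3xTgAD females, and 9.34 to 10.69 against 9.17 to 10.07 in males. In males they thus differed in the opposite direction from the 10 genes. Ependymal genes were higher in 10 of 10 in females (median 0.69) and in 1 of 10 in males (median -0.61). Pituitary genes were higher in 4 of 4 in females (median 1.46) and in 0 of 4 in males (median -1.33), and blood genes in 4 of 8 (median 0.13) and 0 of 8 (median -0.40). Endothelial genes were higher in 8 of 10 in females (median 0.31) and in 9 of 10 in males (median 0.47, 1 called). Oligodendrocyte genes were higher in 3 of 10 (median -0.12) and in 2 of 10 (median -0.30). The part of these cell types in the differences was not tested.

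JHT against WT females gave the largest differences of the genotype comparisons, with both JHT hippocampi above the gap and all 3 WT hippocampi below it. All 10 genes separated the groups, where 29.8% of all genes did, in a comparison that called 0.0926% of all genes. Ttr was 18.05 and 17.65 in JHT against 8.81, 11.95 and 11.99 in WT, a difference of 6.93 ± 2.06 (adjusted p = 0.485). Aqp1 differed by 6.75 ± 1.89, Kcnj13 by 6.04, Slc4a5 by 5.66, Folr1 by 5.35, Clic6 by 5.26, Otx2 by 4.99, Sostdc1 by 3.19, Enpp2 by 2.90 and Kl by 2.71. Slc4a5 was well above background in 1 of the 3 WT hippocampi and Aqp1 in 2 of the 3, so their differences rest in part on signals near background. Adjusted p values were 0.428 to 0.585, and all 10 had an unadjusted p under 0.05, as did 7.87% of all genes. The shared estimate of spread included the 3xTgAD and 3xTgAD-BKO groups that also held an array on each side of the gap. When the brain arrays were added to the estimate, Clic6, Otx2 and Aqp1 passed. The share of all genes called in that fit is not given, so these calls are not set against it. No JHT hippocampus lay below the gap, so the comparison could not be made without those arrays. Of the 28 further choroid plexus genes all were higher in JHT (median 3.16) and none passed, while meningeal genes were higher in 10 of 10 (median 1.09) and ependymal genes in 9 of 10 (median 0.75), against a median of -0.01 over all genes. Their part in the result was not tested.

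3xTgAD females were above WT females in the mean of all 10 genes, with no array above the gap in either group. The differences were 0.22 to 3.23 (lowest adjusted p = 0.635), where 0.773% of all genes were called, and 7 of the 10 genes did not overlap, against 37.5% of all genes. Ttr was 13.84 and 14.44 in 3xTgAD females and at most 11.99 in WT, a difference of 3.23 ± 2.06. Clic6 differed by 2.15, Aqp1 by 2.14, Otx2 by 2.03, Folr1 by 1.15, Kcnj13 by 1.07 and Enpp2 by 1.05. The 2 genotypes lay on different slides. With slide as a fixed term 3 genes changed sign, Otx2 (-0.36), Sostdc1 (-0.22) and Kcnj13 (-0.21), and Folr1 (0.04), Enpp2 (0.31) and Clic6 (0.40) came near 0, while Ttr (2.82), Aqp1 (2.20), Slc4a5 (1.36) and Kl (0.78) stayed above. In that fit slide and genotype can be told apart only through the 3xTgAD-BKO males. The 28 further choroid plexus genes differed little, with 20 higher in 3xTgAD, a median of 0.13 and none called, where the median of the 10 genes was 1.11. Oligodendrocyte genes were higher in 9 of 10 (median 0.35) and ependymal genes in 9 of 10 (median 0.51), while endothelial genes were higher in 0 of 10 (median -0.35, 1 called lower). The mean level of oligodendrocyte genes was 12.86 to 13.34 in 3xTgAD against 12.63 to 12.85 in WT, of ependymal genes 8.96 to 9.23 against 8.24 to 8.84, and of endothelial genes 10.31 to 10.32 against 10.61 to 10.95. Their part in the differences was not tested.

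In brain, too, none of the 10 genes passed in the plain comparisons. In 3xTgAD-BKO against 3xTgAD the differences were -0.41 to 0.29 in females (1.12% of all genes called), -0.42 to 0.23 in males (0.961%) and -0.42 to 0.26 over both sexes (2.64%), with lowest adjusted p values of 0.389, 0.317 and 0.122. The difference between the sexes had a lowest adjusted p of 0.647 (0.101% of all genes). In 3xTgAD against WT they were -0.81 to 0.33 (lowest adjusted p = 0.221, 1.15% of all genes called), and 3 of the 10 genes (Kcnj13, Otx2 and Enpp2) did not overlap, against 36.6% of all genes. In JHT against WT they were -0.53 to 0.09 (lowest adjusted p = 0.929, 0.161% of all genes called), and every one of the 10 overlapped, where 21.4% of all genes did not. No difference reached 1 log2 unit, and 9 of the 10 differences between JHT and WT brains were below 0, where the differences between hippocampi were all above.

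The last comparison asked which genes departed from the common movement. Each gene was fitted again with the mean of the other 9 as a covariate, so that a group difference is what remains at an equal level of the others. In hippocampus no gene passed. The smallest adjusted p values were for Sostdc1 in 3xTgAD-BKO against 3xTgAD females (0.75, adjusted p = 0.383), Enpp2 in males (-0.65, 0.304) and Kcnj13 over both sexes (1.27, 0.296). In 3xTgAD against WT and in JHT against WT the hippocampi shared no equal level, since the centred mean of the 10 genes was -2.44 to -1.44 in WT, -0.42 and -0.28 in 3xTgAD females and 2.73 and 3.61 in JHT. There the fit extrapolates along a slope set by other arrays, so no departure or lack of one was read from it. With the mean of all 10 genes as covariate, 0.272%, 0.376%, 1.16%, 0.825% and 0.0191% of all genes were called in 3xTgAD-BKO against 3xTgAD females, males and both sexes, 3xTgAD against WT and JHT against WT.

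In brain, Enpp2 departed between 3xTgAD-BKO and 3xTgAD. It read 15.89, 16.06, 16.01, 15.94 and 16.07 in 3xTgAD mice 1 to 5 and 15.83, 15.29, 15.75, 15.49 and 15.51 in 3xTgAD-BKO mice 6, 7, 0, 8 and 9. WT mice had 15.79, 15.36 and 15.78 and JHT mice 15.31 and 15.39. All 5 brains of 3xTgAD mice were thus above the other 10. The share of all genes that separated 3xTgAD brains in this way was not counted. At an equal level of the other 9 genes, Enpp2 was lower in 3xTgAD-BKO, with a difference of -0.42 ± 0.06 over both sexes (adjusted p = 0.00941), in a comparison where 2.7% of all genes were called with the mean of the 10 genes as covariate. By sex it was -0.43 ± 0.08 in males (adjusted p = 0.0460, 1.03% of all genes called) and -0.42 ± 0.10 in females (adjusted p = 0.0971, 1.17%). Against WT, 3xTgAD females were higher by 0.50 ± 0.10 (adjusted p = 0.0574, 0.842% of all genes called), and by 0.77 ± 0.15 with slide as a fixed term (adjusted p = 0.0643), the groups being on different slides. Within slide 3 alone, which held the brains of 5 mice of 3xTgAD and of 3 mice of 3xTgAD-BKO, the difference over both sexes was -0.49 (adjusted p = 0.0308). The mean of 10 oligodendrocyte genes was 13.02 to 13.13 in 3xTgAD brains and 12.87 to 13.36 in 3xTgAD-BKO brains, and with it as a further covariate Enpp2 differed by -0.46 (adjusted p = 0.00134). With all 30 arrays in a single fit the call was lost (adjusted p = 0.135), and the call in males alone was lost in several settings given below.

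Kcnj13 departed in the other direction, with 3xTgAD brains low. It read 10.30, 10.41, 10.50, 10.19 and 10.56 in 3xTgAD mice 1 to 5, 10.94, 10.36, 10.80, 10.79 and 10.35 in 3xTgAD-BKO mice 6, 7, 0, 8 and 9, 11.28, 10.71 and 11.51 in WT mice and 10.66 and 10.91 in JHT mice. Every WT and JHT brain was above every 3xTgAD brain, while 3xTgAD-BKO brains overlapped with them. For this division, too, the share of all genes was not counted. At an equal level of the other genes Kcnj13 was lower in 3xTgAD than in WT females, with a difference of -0.64 ± 0.09 (adjusted p = 0.0140). Its second probe gave -0.69 (adjusted p = 0.0312). The 2 groups lay on different slides, and the call was lost with slide as a random block (adjusted p = 0.0727), with slide as a fixed term (-0.73, adjusted p = 0.101) and without 3xTgAD female 2 (adjusted p = 0.0992). In 3xTgAD-BKO against 3xTgAD over both sexes Kcnj13 was higher by 0.32 ± 0.07 (adjusted p = 0.0353), but the call was lost when any of 9 of the 10 mice was left out, with the second probe (adjusted p = 0.0776) and within slide 3 (0.36, adjusted p = 0.0608). Markers of ependyma and endothelium differed in the same direction as Kcnj13, and blood genes in the other direction. In 3xTgAD against WT brains, ependymal genes were lower in 9 of 10 (median -0.40, 1 called) and endothelial genes in 9 of 10 (median -0.36, none called). In 3xTgAD-BKO against 3xTgAD over both sexes, 9 of 10 were higher in each list (medians 0.31 and 0.32, 1 called in each). In the same 2 comparisons, blood genes were higher in 7 of 8 (median 0.18) and in 0 of 8 (-0.08). Pituitary genes were higher in 0 of 4 (-2.64) and 3 of 4 (0.25), and meningeal genes in 3 of 10 (-0.05) and 10 of 10 (0.21). Thalamic genes were higher in 5 of 10 (-0.07) and 2 of 10 (-0.13). The mean level of ependymal genes was 8.58 to 8.59 in 3xTgAD and 8.76 to 9.10 in WT females, and that of endothelial genes 10.47 to 10.48 and 10.80 to 11.13. Their part in the departure was not tested. In JHT against WT no gene departed, the nearest being Folr1 (0.23, adjusted p = 0.692, 0.144% of all genes called).

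**Figure D4:**
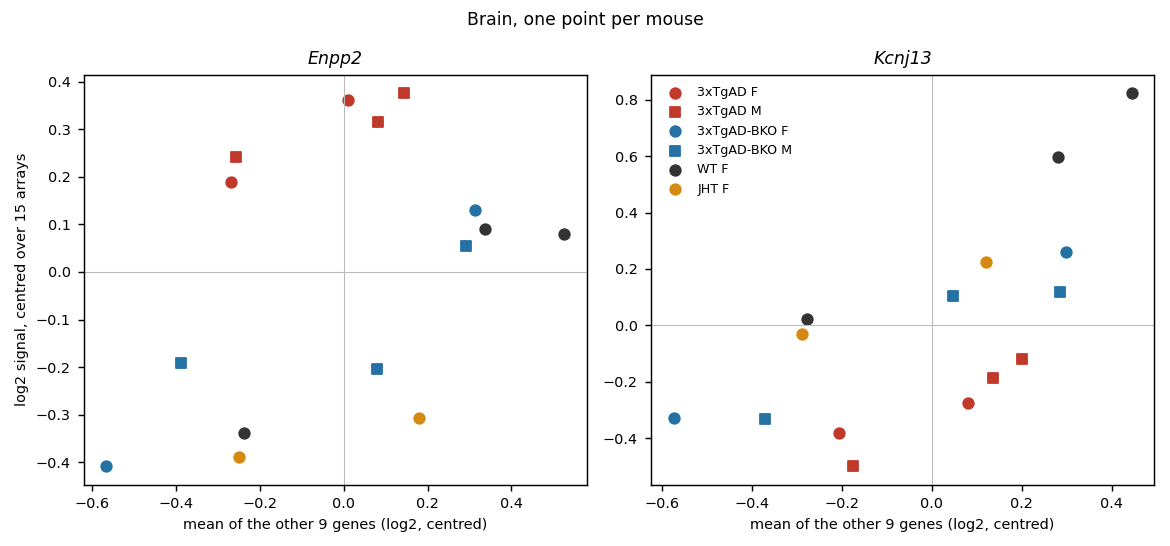
Enpp2 (left) and Kcnj13 (right) in brain, as log2 signal centred over the 15 brains (vertical axis), against the mean of the other 9 genes, centred likewise (horizontal axis), with 1 point per mouse coloured by genotype and shaped by sex. At a given horizontal position the red 3xTgAD points lie above the others for Enpp2 and below them for Kcnj13.

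**Figure D5:**
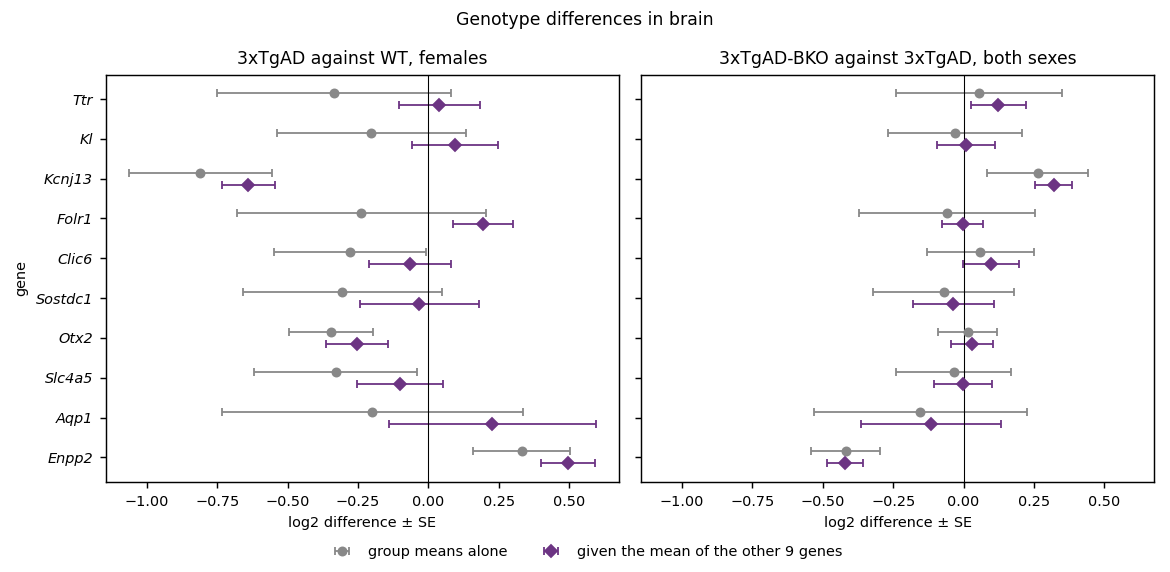
Log2 difference ± SE of each gene in brain for 3xTgAD against WT females (left) and 3xTgAD-BKO against 3xTgAD over both sexes (right), from group means alone (grey) and given the mean of the other 9 genes (purple). The error bars shorten with the covariate, and Kcnj13 (-0.64 left, 0.32 right) and Enpp2 (0.50 left, -0.42 right) are the genes farthest from 0.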

How the data were processed

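RNA from 15 hippocampi and 15 brains was hybridised to single-colour Agilent arrays (total RNA labelled with Cy3). The authors deposited scanner intensity values (background-corrected processed signal; Feature Extraction per the file headers) and a table of scores, which was found to hold each array's log10 signal as a Z-score within the array (r with the scanner values rounds to 1.00 on all 30 arrays); its column medians were -0.31 to -0.20, and it served only as an alternative, in score units. From the intensity values, log2 signals were quantile-normalized over 30 arrays (188 flagged probe values were imputed, none of the 10 genes) and the probe with the highest mean was kept per gene, giving 36717 genes and transcripts from 55681 probes. The 10 genes had 14 probes, named through RefSeq accessions.

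Differences were fitted with limma 3.58.1 in R 4.3.3 over the 15 arrays of a tissue in 6 groups of genotype and sex, and over 30 arrays between tissues, with Benjamini-Hochberg adjustment over all genes and a threshold of 0.05. SE is the moderated standard error. In genotype comparisons genes were named where called or where the log2 difference exceeded 1. The share of all genes whose levels separate groups of arrays was counted only where it is given. Permutation tests used SciPy 1.17.1. The plan was to relate genes to Ttr over 15 hippocampi; the 11 below the gap were used because the arrays formed clusters. Only some of the fits were tested on simulated data, and the outcome is not given here. The 10 genes, the marker lists and the tests were chosen with earlier results of these data known. Arrays of both tissues with 1 number, genotype and sex were taken as 1 mouse from the numbers in the labels alone. Alternatives were the score table, scaling to the 75th percentile, normexp with an offset of 50, normalization within a tissue, mean of probes, a filter on dim probes, slide, other estimates of spread and of the trend, and leaving out each mouse. Chosen after seeing the data were the fits without 4 hippocampi, within a slide, with slide beside the trend, with oligodendrocyte genes as a covariate and with a second probe. No column of per-sample values was left unused.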

Additional observations from a re-analysis of the deposited data

Results flagged for a closer look

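In groups of 5 mice (3xTgAD and 3xTgAD-BKO, sexes together), 14 of 40 gene and tissue groups held a level whose gap to the nearest of the others exceeded 0.71 of the group's range, where about 1 in 20 would by chance if groups were independent, which genes of the same arrays are not. The hippocampus of 3xTgAD male 4 accounted for 8 of them, with Ttr at 18.28 (next 14.44), Kl at 12.91 (next 10.15), Folr1 at 14.14, Clic6 at 14.03, Sostdc1 at 12.06, Otx2 at 12.33, Slc4a5 at 10.92 and Enpp2 at 17.37. The hippocampus of 3xTgAD-BKO female 7 accounted for 5, with Kl at 12.57, Folr1 at 13.85, Sostdc1 at 11.70, Slc4a5 at 10.64 (next 4.64) and Aqp1 at 11.88 (next 6.72). In brain, Otx2 of 3xTgAD female 2 was the lowest of its group at 10.80, with the next at 10.90, a gap that stood out because the other 4 levels spanned so little.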

How the results depend on the processing

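In hippocampus 0 of the 10 genes were called in each genotype comparison under nearly all alternatives. The exceptions were JHT against WT with all 30 arrays in a single fit (3 genes: Clic6, Otx2 and Aqp1), and the methods' t-test at an unadjusted p of 0.05, which called 10 genes in JHT against WT (9.28% of all genes) and 4 in 3xTgAD against WT (Kl, Otx2, Aqp1 and Enpp2, 13.5% of all genes). The share of all genes called in the single fit over 30 arrays is not given. Without the 4 arrays above the gap, 9 of the 10 female differences between 3xTgAD-BKO and 3xTgAD turned below 0 (-2.94 for Ttr, -0.82 for Kl, -0.62 for Folr1, -1.40 for Clic6, -0.0010 for Sostdc1, -0.26 for Otx2, -1.89 for Slc4a5, -1.75 for Aqp1 and -0.63 for Enpp2), 3 of the male ones turned above 0 (0.13 for Kl, 0.54 for Kcnj13 and 0.15 for Aqp1), that of Sostdc1 over both sexes turned to -0.12, and those between tissues to -0.25 for Kl and -0.98 for Sostdc1. With single mice left out, female 7 and male 4 set those same values, and the female differences ran from -0.62 to 4.66 for Folr1, -1.40 to 3.40 for Clic6, -0.0010 to 3.57 for Sostdc1, -0.26 to 3.35 for Otx2, -1.89 to 5.09 for Slc4a5 and -1.75 to 4.82 for Aqp1, and the male ones from -2.78 to 0.54 for Kcnj13 and from -2.85 to 0.15 for Aqp1. With slide as a fixed term, 3xTgAD against WT in hippocampus turned to -0.21 for Kcnj13, -0.22 for Sostdc1 and -0.36 for Otx2, and 3xTgAD-BKO against 3xTgAD over both sexes to 0.11 for Folr1 and 0.35 for Otx2. With single mice left out, the difference over both sexes in Ttr ran from -3.16 to 0.33, and the tissue difference in Sostdc1 from -0.28 to 0.46 (-0.13 without mouse 4). With single mice left out, the count of genes called between tissues ran from 2 to 8, and the counts of genes related to Ttr from 4 to 7 in hippocampus and from 7 to 8 in brain (with group means subtracted they were 4 and 9), where r between the tissues of a mouse ran from -0.50 to -0.34.

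In the plain brain comparison of 3xTgAD-BKO and 3xTgAD over both sexes, 1 gene (Enpp2) was called with scaling to the 75th percentile, with normexp and by the methods' t-test at an unadjusted p of 0.05 (12.8% of all genes), and 0 to 1 with single mice left out. In males that t-test called 2 (Otx2 and Enpp2, 8.33% of all genes). Of the departures from the common movement over both sexes in brain, Enpp2 alone (1 gene) remained with scaling to the 75th percentile, the mean of probes, the median or Ttr alone as the trend, and within slide 3, and 0 with all 30 arrays in a single fit. With single mice left out the count was 1 to 2. In males no gene departed (0) under 75th percentile scaling, normalization within the tissue, the mean of probes, all 30 arrays, slide as a random block and within slide 3, and 0 to 1 with single mice left out. In females it was 1 (Enpp2) with normexp and with oligodendrocyte genes as a covariate. In 3xTgAD against WT it was 2 (Kcnj13 and Enpp2) with normexp, the median trend and the oligodendrocyte covariate, 0 with Ttr alone, all 30 arrays, slide as a random block or as a fixed term, and 0 to 1 with single mice left out. In hippocampus 1 gene (Kcnj13) departed over both sexes with all 30 arrays. Apart from the t-test, shares of all genes called under these alternatives are not given, so the counts are not set against them. The cause of these shifts was not tested. The tissue comparison with the mouse number as a replicate block called 6 genes, as without it, and changed no call. Whether the numbers pair the tissues is not settled, since after group means were removed arrays of 1 number correlated at -0.18 to 0.24 (median 0.10) and 8 of 15 pairs exceeded 0.1. Numbers of all genes called ranged widely, from 452 to 4692 around 968 over both sexes in brain and from 0 to 3408 around 34 for JHT against WT in hippocampus. Dim signal limits Slc4a5, which was not well above background in 6 hippocampi, and Aqp1 in 1, and groups of 2 or 3 mice limit all genotype comparisons.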

Other observations

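Levels of the second probe of a gene followed the first. Within the 15 arrays of a tissue, the pairs of probes for Folr1, Kcnj13, Slc4a5 and Sostdc1 correlated at 0.87 to 0.99, so the division of the hippocampi did not rest on single probes for these 4 genes. The second probes of Folr1 and Slc4a5 were well above background in only 5 and 4 of the 15 hippocampi. In hippocampus these correlations mostly reflect the gap.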
